A study of Mus musculus with 13 samples.

Results

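Type I interferon-stimulated genes are the transcripts that cells switch on after interferon alpha or beta binds its receptor at the cell surface. A list of 40 such genes, together with both receptor subunits within that number, was looked up by gene symbol in the deposited expression table, and 40 of 40 were found among its 14911 genes. All values come from whole injured hamstring muscle of female C57BL/6 mice, of an age not given in the sources used here, taken 4 days after an intramuscular injection of cardiotoxin at 0.32 mg/kg. Cardiotoxin, a toxin of snake venom, kills muscle fibres and leaves their stem cells to rebuild them. The saline group (4 libraries, numbered 1, 2, 3 and 5) received saline. The dexamethasone group (9 libraries, numbered 1 to 9) received dexamethasone, a synthetic glucocorticoid, at 10 mg/kg. Both were given once a day into the peritoneum on days 0 to 4, per the labels. Both groups therefore carried the same injury, and uninjured or interferon-treated muscle was not analysed here. Per the submitters, every dexamethasone mouse had bone in its injured muscle, and the only saline mouse with bone was set aside, so an effect of the drug and an effect tied to bone formation cannot be told apart. Libraries held 25531487 to 34942266 reads over the 14911 genes of the table, and the depths of the groups differed with an exact permutation p of 0.485 (two-sided, n = 4 and 9). The authors' effective library size, the divisor in each CPM, was 0.952 times the reads in saline and 1.03 times in dexamethasone libraries on average (exact permutation p of 0.00559). Skeletal muscle transcripts were abundant in every library, with Acta1, the skeletal muscle actin, at 14.31 to 15.37 log2 CPM.

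Interferon alpha and beta bind a receptor made of IFNAR1 and IFNAR2, whose attached kinases JAK1 and TYK2 phosphorylate STAT proteins, STAT2 among them. With IRF9 these form a complex, ISGF3, that binds the interferon-stimulated response element in promoters and turns on a large set of antiviral genes. IRF7 then raises interferon production further, and USP18 and SOCS1 damp the receptor. Glucocorticoids are known to restrain inflammatory and interferon-driven transcription through the glucocorticoid receptor, and immune cells that enter injured muscle are among the cells that respond to interferon.

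Most of these genes were lower in dexamethasone muscle. Ifit3, an RNA-binding antiviral protein, fell by 1.63 on the log2 scale, Ifi44 by 1.50 and Mx2, of the dynamin-like GTPase family, by 1.47. Of the 40 genes, 32 were lower and 1, Ifnar1, was higher at an adjusted p of 0.05 (limma, Benjamini-Hochberg over all 14911 genes), and 7 did not pass the test. The background rate over all genes was 22.9% called lower and 25.2% called higher. The median log2 fold change of the 40 genes was -0.57, against 0.0071 over all genes of the table. At least 2-fold lower and called were 14 of the 40 genes, where 2.69% of all genes were. In 17 genes every dexamethasone library lay below every saline library, against 12.9% of all genes, and in 1 gene every dexamethasone library lay above, against a further 12.9% of all genes. The authors' deposited table, from their own limma comparison, likewise had 32 of these genes lower and 1 higher at an adjusted p of 0.05. A fold change here is a difference of mean log2 CPM, where CPM is a gene's reads scaled to library size by the authors.

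**Figure D1:**
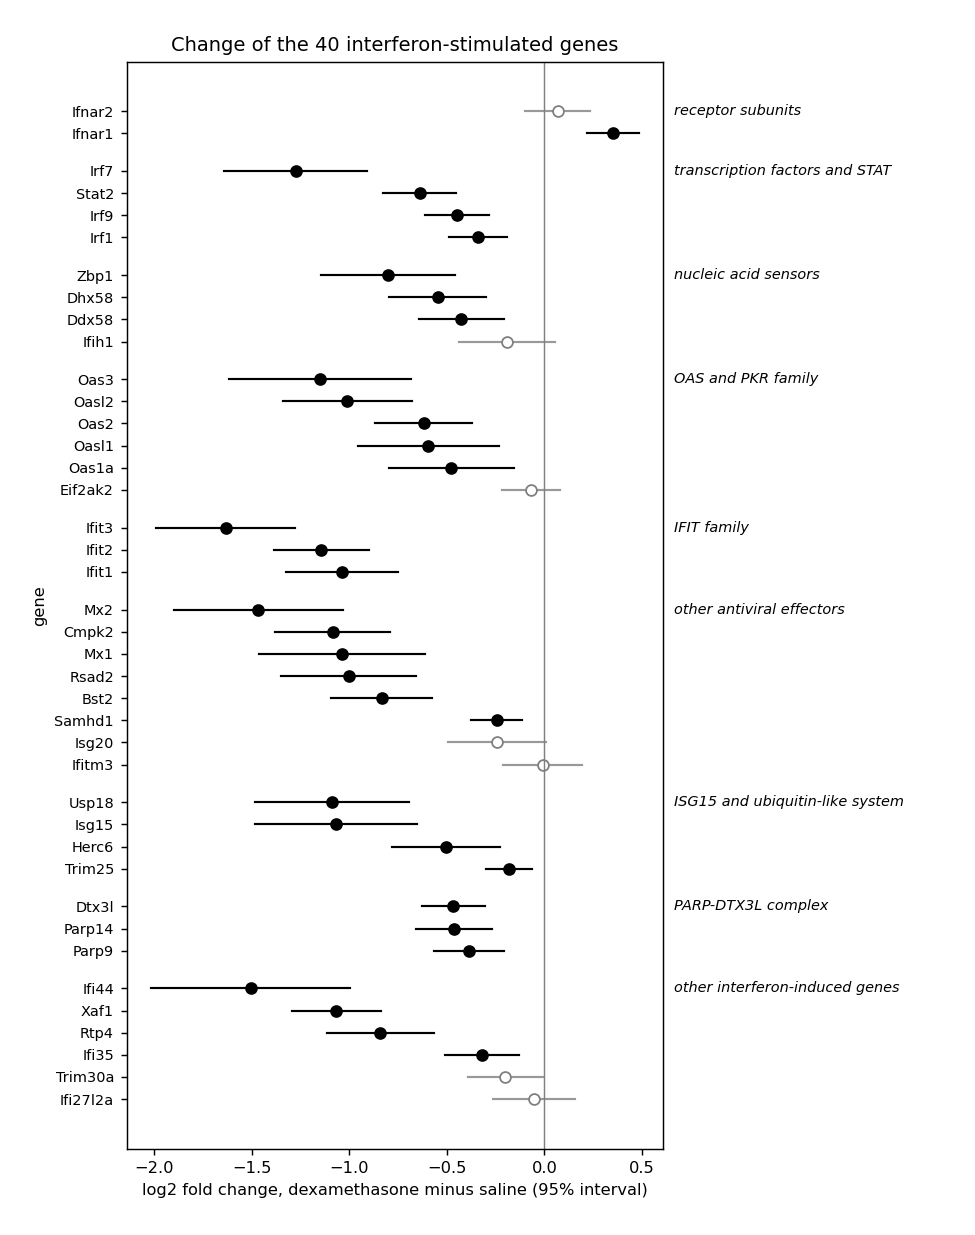
Log2 fold change of each of the 40 interferon-stimulated genes, dexamethasone minus saline, on the x axis, with genes in rows grouped by role and bars for the 95% interval of the limma fit. Filled points passed an adjusted p of 0.05 and open grey points did not; the values run from -1.63 (Ifit3) to 0.35 (Ifnar1), and Ifnar1 is the only filled point to the right of 0.

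The promoters of these genes are where the pathway ends, since ISGF3 binds there. RefSeq promoter windows (build GRCm38.p6, 250 bases before to 50 after each start site) were held for 30 of the 40 genes, and a match in any window of a gene counted. The interferon-stimulated response element was searched on both strands as GAAA, any 2 bases, and again GAAA, which reads TTTC, 2 bases, TTTC on the other strand. It occurred in 13 of these 30 genes (43.3%), against 1079 of 27025 genes with a window (3.99%). Among the 23 genes with a window that were called lower, 9 held it (39.1%), and among the 6 that were not called, 4 held it (66.7%). The element was thus found both in genes that fell and in genes that were not called. To show matches to this letter pattern, 1 stretch per role is printed. It comes from the called gene of smallest adjusted p that holds the element upstream of its start site. The stretches run 5′ to 3′ in the direction of the gene, with up to 40 bases on either side. The element is in capitals, and runs of capitals longer than a single element hold overlapping copies. They lie at chr10:128270248-128270325 (plus strand), chr5:120777685-120777774 (minus strand), chr19:34583333-34583456 (plus strand), chr8:71537547-71537642 (minus strand) and chr4:156200835-156200936 (minus strand), each upstream of the start site that its window is built on. In Ifit3 the table used for gene positions begins further upstream, so its stretch lies within the span given for that gene.
Stat2: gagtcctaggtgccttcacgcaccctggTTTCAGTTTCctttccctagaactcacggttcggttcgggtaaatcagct
Oas3: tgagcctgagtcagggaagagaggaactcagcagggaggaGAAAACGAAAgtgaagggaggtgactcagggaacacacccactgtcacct
Ifit3: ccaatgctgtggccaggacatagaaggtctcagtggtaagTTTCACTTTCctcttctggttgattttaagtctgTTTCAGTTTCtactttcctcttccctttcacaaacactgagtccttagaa
Bst2: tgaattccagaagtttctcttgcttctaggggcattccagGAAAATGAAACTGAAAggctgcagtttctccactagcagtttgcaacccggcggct
Isg15: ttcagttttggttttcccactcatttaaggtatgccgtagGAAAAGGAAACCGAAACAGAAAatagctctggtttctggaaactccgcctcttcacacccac
Stat2 and Oas3 held 1 copy each, Ifit3 2 separate copies, Bst2 2 overlapping copies and Isg15 3 overlapping copies. In Ifit3 and Stat2 the match lay on the opposite strand, and in Oas3, Bst2 and Isg15 on the strand of the gene. The copy nearest to the start site ended 56 bases before it in Isg15 and 65 bases before it in Oas3, but 212 bases before it in Stat2.

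A second letter pattern, the gamma-activated site of interferon gamma signalling, was searched on both strands as TTCNNNGAA. It occurred in 11 of the 30 genes (36.7%), against 2582 of 27025 (9.55%). It was held by 6 of the 23 genes called lower (26.1%) and by 4 of the 6 not called (66.7%). Among the 12 genes called and under 2-fold lower, 5 held it (41.7%). Among the 11 called and at least 2-fold lower, 1 held it (9.09%), that gene being Ifit2, while 5 of the 11 held the response element (45.5%). A glucocorticoid response element, GNACA, 3 bases and TGTNC, occurred in 0 of the 30 genes and in 145 of 27025 (0.537%), which says only that those letters are not in these windows. Each pattern was counted on its own, so a stretch that matched more than 1 pattern counted for each. A match is a description of letters and not a measured binding site.

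Neither receptor gene was called lower. Ifnar1, the subunit that carries TYK2, was at 5.58, 5.76, 5.80 and 5.96 log2 CPM in saline libraries 1, 2, 3 and 5, and at 6.00 to 6.21 with a median of 6.17 in the 9 dexamethasone libraries. Every dexamethasone library lay above every saline library. Ifnar1 (mm10 chromosome 16, 91485032 to 91510523) was 1.27-fold higher, a rise of 0.35 ± 0.06 in log2 CPM (SE; adjusted p of 3.10e-04). Ifnar2, the subunit that binds interferon most tightly and carries JAK1, was at 5.01, 5.20, 5.22 and 5.54 log2 CPM in saline and 5.19 to 5.49 with a median of 5.27 in dexamethasone libraries. Its groups overlapped, and its difference of 0.07 had a 95% interval of -0.10 to 0.24 (adjusted p of 0.507).

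All 4 transcription factors on the list fell. Irf7 (mm10 chromosome 7, 141263183 to 141266499), the factor that amplifies interferon production, was at 6.29, 6.59, 6.00 and 6.85 log2 CPM in saline libraries and 4.86 to 5.90 with a median of 5.07 in dexamethasone libraries. Saline library 5 was the highest of all 13 for Irf7, and the groups did not overlap. It fell by 1.27 ± 0.17 on the log2 scale (SE; adjusted p of 2.76e-05), or 2.42-fold. Stat2, a STAT of the ISGF3 complex, was at 5.87, 6.11, 5.80 and 6.11 in saline and 5.07 to 5.58 with a median of 5.42 in dexamethasone libraries. It fell by 0.64 ± 0.09 (adjusted p of 3.20e-05). Irf9, the DNA-binding part of ISGF3, was at 5.04, 5.10, 5.05 and 5.19 in saline, tightly grouped, and 4.41 to 4.86 with a median of 4.63 in dexamethasone libraries, and fell by 0.45 ± 0.08 (adjusted p of 2.04e-04). Irf1, a factor that interferon gamma also induces, was at 5.33, 5.30, 5.31 and 5.45 in saline against 4.79 to 5.17 with a median of 5.04 in dexamethasone libraries, and fell by 0.34 ± 0.07 (adjusted p of 8.70e-04). In none of these 4 genes did any dexamethasone library reach the lowest saline library.

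Among the sensors of viral nucleic acids, 3 of 4 fell. Zbp1, a sensor of Z-form nucleic acids that can trigger cell death, was at 4.71, 4.52, 4.30 and 4.97 log2 CPM in saline and 3.42 to 4.56 with a median of 3.75 in dexamethasone libraries, and fell by 0.80 ± 0.16 on the log2 scale (SE; adjusted p of 8.16e-04). Dhx58, which encodes LGP2, a regulator of the RIG-I family, stood at 3.92, 4.26, 4.09 and 4.43 in saline and 3.35 to 4.08 with a median of 3.63 in dexamethasone libraries, and fell by 0.55 ± 0.12 (adjusted p of 0.00132). Ddx58, which encodes RIG-I itself, stood at 4.98, 5.11, 4.94 and 5.39 in saline and 4.41 to 5.07 with a median of 4.67 in dexamethasone libraries, and fell by 0.43 ± 0.10 (adjusted p of 0.00302). These 3 groups overlapped, each through dexamethasone library 9 alone. Ifih1, which encodes the sister sensor MDA5, was at 4.41, 4.64, 4.12 and 4.60 in saline and 3.92 to 4.63 with a median of 4.24 in dexamethasone libraries, a difference of -0.19 with a 95% interval of -0.44 to 0.06 (adjusted p of 0.188).

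Of the oligoadenylate synthetase family and the RNA-dependent kinase PKR, 5 of 6 fell. The synthetases make a short RNA-like messenger that activates RNase L, which cuts viral and cellular RNA. Oas3 was at 3.82, 3.90, 3.67 and 4.24 log2 CPM in saline and 2.12 to 3.72 with a median of 2.64 in dexamethasone libraries, and fell by 1.15 ± 0.22 (SE; adjusted p of 5.08e-04), or 2.22-fold. Oasl2, a synthetase-like gene, was at 5.90, 5.98, 5.82 and 6.43 in saline and 4.72 to 5.79 with a median of 4.92 in dexamethasone libraries, and fell by 1.01 ± 0.16 (adjusted p of 9.17e-05). Oasl2 was the only member of this family whose groups did not overlap, its highest dexamethasone library at 5.79 lying just under its lowest saline library at 5.82. Oas2 fell by 0.62 ± 0.12 (adjusted p of 4.78e-04), with saline libraries at 5.24, 5.65, 5.30 and 5.77 and dexamethasone libraries at 4.61 to 5.29 with a median of 4.86. Oasl1, a synthetase-like gene that limits Irf7 translation, fell by 0.59 ± 0.17 (adjusted p of 0.00899), with 3.34, 3.85, 3.35 and 4.07 in saline and 2.71 to 3.71 with a median of 3.00 in dexamethasone libraries. Oas1a fell by 0.48 ± 0.15 (adjusted p of 0.0160), with saline libraries at 3.69, 4.01, 3.79 and 4.35 and dexamethasone libraries at 3.17 to 4.06 with a median of 3.46. Its groups overlapped through more than 1 dexamethasone library, and without saline library 5 the difference was -0.35 and its adjusted p 0.0761. Eif2ak2, which encodes PKR, was at 4.68, 4.74, 4.58 and 4.81 in saline and 4.44 to 4.89 with a median of 4.63 in dexamethasone libraries, a difference of -0.07 with a 95% interval of -0.22 to 0.08 (adjusted p of 0.455).

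All 3 IFIT genes, whose proteins grip viral RNA and block its translation, fell at least 2-fold with no overlap between groups. Ifit3 (mm10 chromosome 19, 34583119 to 34588982) was at 5.12, 5.17, 4.78 and 5.41 log2 CPM in saline libraries and 3.15 to 4.07 with a median of 3.36 in dexamethasone libraries. It went from 5.12 ± 0.26 to 3.49 ± 0.35 (SD, n = 4 and 9), a fall of 3.10-fold (limma adjusted p of 2.40e-06). The highest dexamethasone library for Ifit3 at 4.07 was under the lowest saline library at 4.78. Ifit2 stood at 5.00, 5.04, 4.88 and 5.20 in saline and 3.58 to 4.40 with a median of 3.81 in dexamethasone libraries, and fell by 1.14 ± 0.11 (adjusted p of 1.93e-06). Ifit1 stood at 4.36, 4.32, 4.14 and 4.36 in saline and 2.89 to 3.66 with a median of 3.24 in dexamethasone libraries, and fell by 1.04 ± 0.14 (adjusted p of 1.98e-05). Saline libraries of Ifit1 and Ifit2 were close to one another, and the spread was wider among dexamethasone libraries.

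Other antiviral effectors were split, with 6 of 8 lower and 2 not called. Mx2 was at 2.39, 2.50, 2.82 and 2.79 log2 CPM in saline and 0.55 to 1.998 with a median of 1.16 in dexamethasone libraries, with no overlap. It fell by 1.47 ± 0.20 on the log2 scale (SE; adjusted p of 3.46e-05), resting on 134 reads or more in saline and 47 or more in dexamethasone libraries. Mx1, its neighbour and paralog, was at 4.11, 3.99, 3.63 and 4.32 in saline and 2.44 to 3.78 with a median of 2.92 in dexamethasone libraries, and fell by 1.03 ± 0.20 (adjusted p of 5.85e-04). Rsad2, which encodes viperin, an enzyme that makes a chain-terminating nucleotide, stood at 4.23, 4.20, 4.39 and 4.54 in saline and 2.96 to 4.05 with a median of 3.24 in dexamethasone libraries, and fell by 1.00 ± 0.16 (adjusted p of 1.35e-04). Cmpk2, the nucleotide kinase encoded beside it, stood at 3.78, 3.90, 3.71 and 3.68 in saline and 2.28 to 3.20 with a median of 2.61 in dexamethasone libraries, and fell by 1.08 ± 0.14 (adjusted p of 1.64e-05). The groups of Rsad2 and Cmpk2 did not overlap. Bst2, which encodes tetherin, a protein that holds budding virus at the cell surface, stood at 5.53, 5.73, 5.60 and 6.21 in saline and 4.65 to 5.32 with a median of 4.91 in dexamethasone libraries, and fell by 0.83 ± 0.12 (adjusted p of 5.31e-05). Samhd1, which depletes the nucleotide pool, changed little in size: it fell by 0.24 ± 0.06 (adjusted p of 0.00390), with 6.85, 6.91, 6.81 and 7.10 log2 CPM in saline and 6.57 to 6.87 with a median of 6.64 in dexamethasone libraries. Ifitm3 (mm10 chromosome 7, 141009590 to 141010744), a membrane protein that blocks virus entry and is expressed in many cell types without interferon, was at 7.25, 7.40, 7.17 and 7.80 in saline and 7.29 to 7.64 with a median of 7.35 in dexamethasone libraries. Its difference was -0.01 with a 95% interval of -0.21 to 0.19 (adjusted p of 0.951). Isg20, an RNA exonuclease, was at 2.31, 2.23, 2.67 and 2.74 in saline against 2.02 to 2.51 with a median of 2.25 in dexamethasone libraries, a difference of -0.24 with an interval of -0.49 to 0.01 (adjusted p of 0.104).

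The ISG15 system, in which a ubiquitin-like protein is attached to and removed from other proteins, fell in all 4 members. Isg15 (mm10 chromosome 4, 156199424 to 156200818), the ubiquitin-like protein itself, was at 3.74, 4.05, 3.70 and 4.32 log2 CPM in saline and 2.47 to 3.78 with a median of 2.78 in dexamethasone libraries. It fell by 1.07 ± 0.19 on the log2 scale (SE; adjusted p of 3.53e-04), or 2.10-fold, and its groups overlapped only because dexamethasone library 9 was above saline libraries 1 and 3. Usp18, the protease that removes ISG15 and also blocks the receptor, was at 3.09, 3.46, 3.37 and 3.58 in saline and 1.82 to 3.08 with a median of 2.22 in dexamethasone libraries, and fell by 1.09 ± 0.19 (adjusted p of 2.16e-04). Herc6, the mouse ligase that attaches ISG15, stood at 3.25, 3.30, 2.98 and 3.54 in saline and 2.47 to 3.24 with a median of 2.77 in dexamethasone libraries, and fell by 0.50 ± 0.13 (adjusted p of 0.00463). Trim25, a ligase that acts on RIG-I, had the smallest fall among the genes called, at 0.18 ± 0.06 (adjusted p of 0.0151), with 6.12, 6.35, 6.32 and 6.42 log2 CPM in saline and 6.02 to 6.27 with a median of 6.11 in dexamethasone libraries. Its adjusted p was 0.0509 without saline library 2 and 0.0606 without saline library 5.

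**Figure D2:**
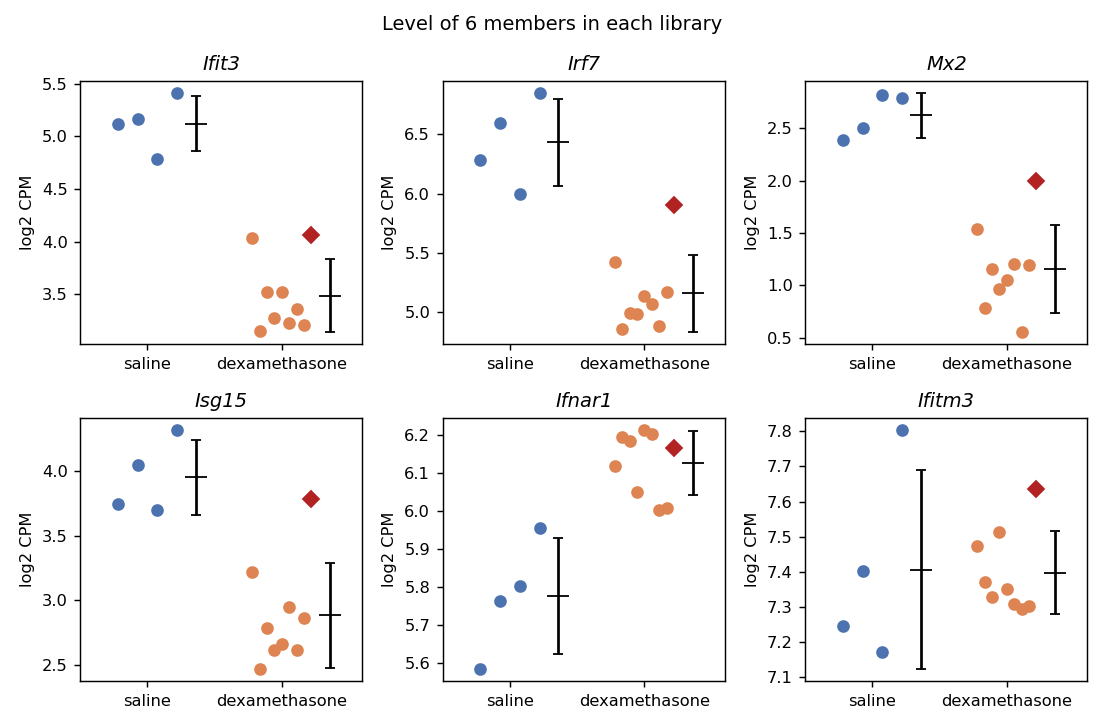
Log2 CPM of Ifit3, Irf7, Mx2, Isg15, Ifnar1 and Ifitm3 in each library (y axis), with saline libraries in blue, dexamethasone libraries in orange and dexamethasone library 9 as a red diamond; black bars are the group mean ± SD (n = 4 and 9). Ifit3, Irf7 and Mx2 do not overlap between groups, Isg15 does through library 9, Ifnar1 lies higher in every dexamethasone library and Ifitm3 overlaps.

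The PARP9-DTX3L complex, an ADP-ribosylating ubiquitin ligase that promotes interferon-driven transcription, and the related Parp14 fell together by similar amounts. Dtx3l stood at 5.39, 5.42, 5.30 and 5.39 in saline and 4.71 to 5.23 with a median of 4.89 in dexamethasone libraries, with no overlap, and fell by 0.47 ± 0.08 on the log2 scale (SE; adjusted p of 1.30e-04). Parp9 stood at 5.08, 5.11, 4.86 and 5.31 in saline and 4.54 to 5.03 with a median of 4.65 in dexamethasone libraries, and fell by 0.39 ± 0.09 (adjusted p of 0.00162). Parp14 stood at 6.02, 5.99, 5.84 and 6.16 in saline and 5.21 to 5.85 with a median of 5.55 in dexamethasone libraries, and fell by 0.46 ± 0.09 (adjusted p of 7.31e-04). In Parp9 and Parp14, dexamethasone library 9 alone reached into the saline values.

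Among the remaining interferon-induced genes, 4 of 6 fell. Ifi44, a cytoplasmic protein of the antiviral response, was at 2.32, 2.08, 2.30 and 2.72 log2 CPM in saline and 0.45 to 2.07 with a median of 0.76 in dexamethasone libraries. It fell by 1.50 ± 0.24 on the log2 scale (SE; adjusted p of 1.17e-04) and, with 101 reads or more in saline and 39 or more in dexamethasone libraries, was the least abundant gene of the list. Xaf1, a protein that counters an inhibitor of cell death, stood at 3.96, 4.01, 3.76 and 4.18 in saline and 2.63 to 3.23 with a median of 2.88 in dexamethasone libraries, and fell by 1.07 ± 0.11 (adjusted p of 2.02e-06). Rtp4, a chaperone of membrane receptors that also restrains interferon responses, stood at 4.47, 4.54, 4.37 and 4.97 in saline and 3.49 to 4.22 with a median of 3.69 in dexamethasone libraries, and fell by 0.84 ± 0.13 (adjusted p of 8.38e-05). No dexamethasone library of Ifi44, Xaf1 or Rtp4 reached the saline values. Ifi35 stood at 4.48, 4.61, 4.42 and 4.69 in saline and 4.04 to 4.59 with a median of 4.24 in dexamethasone libraries, and fell by 0.32 ± 0.09 (adjusted p of 0.00814). Ifi27l2a, a small mitochondrial membrane protein, was at 6.17, 6.39, 6.08 and 6.65 in saline and 6.08 to 6.50 with a median of 6.32 in dexamethasone libraries, a difference of -0.05 with a 95% interval of -0.26 to 0.16 (adjusted p of 0.695). Trim30a, a ligase that restrains signalling from Toll-like receptors, was at 4.70, 4.69, 4.69 and 5.01 in saline against 4.36 to 4.92 with a median of 4.53 in dexamethasone libraries, a difference of -0.20 with an interval of -0.39 to -0.01 (adjusted p of 0.0839). Without dexamethasone library 9 the adjusted p of Trim30a was 0.0198.

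Single libraries stood high or low across most of the list. In 35 of the 40 genes (87.5%) dexamethasone library 9 had the top value of its group, which it had in 8.29% of all genes. It lay above the mean of the other 8 in 39 of 40 genes, by a median of 0.44 on the log2 scale and by up to 1.37 in Ifi44, against 7836 of 14911 genes and a median of 0.0072 over the table. The mean log2 CPM of the 40 genes was 4.60 in that library and 3.91 to 4.28 in the other 8 dexamethasone libraries, while saline libraries 1, 2, 3 and 5 stood at 4.69, 4.80, 4.64 and 5.03. By this mean library 9 was close to the saline libraries, and still below each of them. By the summed CPM of the 40 genes it stood at 1406, above saline library 3 at 1357. Saline libraries 1, 2 and 5 were higher, at 1410, 1546 and 1819. Of the 15 genes called lower whose groups overlapped, 13 overlapped through library 9 alone, the exceptions being Oas1a and Trim25. Counted without it, a choice made after seeing the data, 31 of the 40 genes lay below every saline library in all other dexamethasone libraries, against 13.4% of all genes. Dexamethasone library 7 was the lowest for 22 genes (15.0% of all genes had it lowest). At the saline end, library 5 was the highest saline library for 36 of 40 genes (33.6% of all genes) and library 3 the lowest for 23 (18.4% of all genes). Without dexamethasone library 9 the count of genes called lower was 33, and without saline library 5 it was 30.

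**Figure D3:**
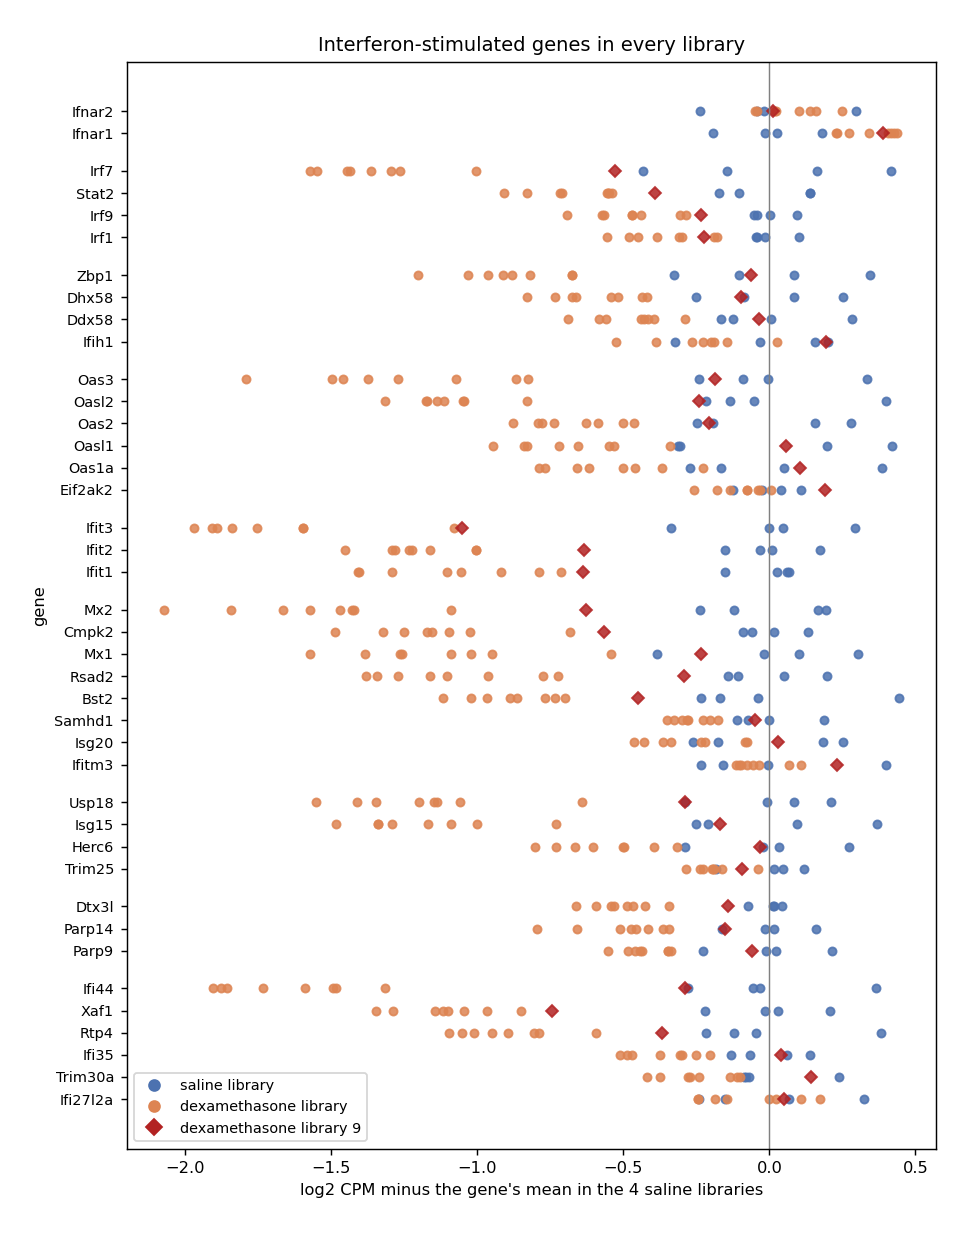
Log2 CPM minus the gene's saline mean (x axis, log2 units) for each of the 40 genes (rows, grouped by role), with 1 point per library: saline in blue, dexamethasone in orange and dexamethasone library 9 as a red diamond. Most orange points lie left of the blue ones, and the diamond has the top dexamethasone value in 35 of the 40 rows.

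The genes also differed widely in level. Per kilobase of exon, on a linear CPM scale, Ifitm3 was the most abundant in saline muscle at 254 ± 52.9 (SD, n = 4), followed by Ifi27l2a at 175 ± 31.4. Neither of these passed the test. Bst2 was at 61.5 ± 14.2 CPM per kilobase in saline and 34.2 ± 4.86 in dexamethasone (SD, n = 9). Irf7 was at 23.4 ± 5.91 in saline and 9.70 ± 2.56 in dexamethasone, and Ifit3 at 20.1 ± 3.53 and 6.60 ± 1.73. Irf7, Isg15 and Ifit3 did not differ in saline level beyond their spread, Isg15 being at 20.8 ± 4.28 CPM per kilobase. The lowest levels were those of Mx2, Herc6 and Ifi44, at 1.72 ± 0.252, 1.05 ± 0.166 and 0.845 ± 0.163 CPM per kilobase in saline. Summed over the 40 genes, the CPM was 1357 to 1819 in saline and 1001 to 1406 in dexamethasone libraries, the highest of these being library 9.

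Some members lie side by side in the genome or share letters with other genes. Ifit2, Ifit3 and Ifit1 lie on chromosome 19 on the same strand, with 6584 bases between Ifit2 and Ifit3 and 51906 between Ifit3 and Ifit1. Oas2 and Oas3 are 3211 bases apart and Oasl1 and Oasl2 10897 bases apart, both pairs on chromosome 5. Rsad2 and Cmpk2 on chromosome 12 run away from each other, with start sites 12665 bases apart, and Parp9 and Dtx3l on chromosome 16 overlap by 558 bases on opposite strands. The strand setting of the read counting is not given in the sources used here, so reads in that overlap cannot be assigned. The same limit holds where other genes of the table overlap a member: Ifit1bl1 spans all 9121 bases of Ifit1, Ifi27 overlaps Ifi27l2a by 6057 bases and Masp1 overlaps Rtp4 by 1022 bases. Ifit1bl1 fell by 1.21 ± 0.27 (adjusted p of 0.00157) and Ifi27 fell by 0.43 ± 0.06 (adjusted p of 4.25e-05), whereas Ifi27l2a was not called. Of 50-base pieces of their transcripts, 57.6% of Oas1a also occurred in Oas1g and 51.2% of Ifit3 in Ifit3b, so how the counting divided or dropped reads between those copies is uncertain. Oas1g fell by 0.68 ± 0.18 (adjusted p of 0.00647) and Ifit3b fell by 1.70 ± 0.19 (adjusted p of 4.82e-06), in the same direction as their copies. A further 6 members shared 5.98% to 12.5% of such pieces with another gene.

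Other interferon-stimulated genes, from a second list of 64, were measured in 60 cases. Of these, 40 were lower, 2 were higher and 18 were not called, with a median log2 fold change of -0.44, beside the 22.9% of all genes called lower. The smallest adjusted p among them belonged to Mndal, a nuclear DNA-binding protein of the Ifi200 family, which fell by 1.03 ± 0.10 (adjusted p of 2.16e-06), with 5.07, 5.07, 5.02 and 5.56 log2 CPM in saline and 3.95 to 4.52 with a median of 4.14 in dexamethasone libraries. Sp140, a chromatin reader of immune cells, fell by 0.80 ± 0.08 (adjusted p of 2.30e-06). Trim12a fell by 0.82 ± 0.09, Trim34a fell by 0.97 ± 0.11 and Ifi203 fell by 0.71 ± 0.09 on the log2 scale (adjusted p of 5.94e-06, 8.01e-06 and 1.08e-05). In 21 of the 60 genes every dexamethasone library lay below every saline library, against 12.9% of all genes. These 5 genes, picked by small adjusted p, were among the 21. The 2 that rose were Slfn9, by 0.59 ± 0.13, and Ifitm2, a relative of Ifitm3, by 0.34 ± 0.08 (adjusted p of 0.00141 and 0.00173). In 41 of the 60 genes (68.3%) library 9 had the top value among dexamethasone libraries, against 8.29% of all genes. In 49 of the 60 library 5 had the top value among saline libraries, against 33.6% of all genes.

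Upstream of the response, the genes were mixed. Among the receptor kinases, Tyk2, the kinase on Ifnar1, fell by 0.12 ± 0.05 (adjusted p of 0.0437), a call that was lost in 14 of 26 alternative analyses. Ptpn1 and Ptpn2, phosphatases that switch off JAK kinases and STATs, rose by 0.33 ± 0.06 and 0.29 ± 0.05 (adjusted p of 5.96e-04 and 4.66e-04). Jak1 differed by 0.0016 with an interval of -0.12 to 0.12, and Socs1, the receptor inhibitor that interferon induces, by 0.21 with an interval of -0.15 to 0.57 (adjusted p of 0.984 and 0.322). In the list of nucleic acid sensing genes, 6 of 17 measured fell and 4 rose, where 22.9% of all genes were lower and 25.2% higher. Tlr9, a DNA sensor of dendritic cells and B cells, fell by 1.04 ± 0.16 (adjusted p of 9.23e-05), and Unc93b1, which delivers such receptors to endosomes, fell by 0.36 ± 0.08 (adjusted p of 0.00181). In contrast, Myd88, their adaptor, rose by 0.53 ± 0.09 and Sting1, the adaptor of cytosolic DNA sensing, by 0.51 ± 0.09 (adjusted p of 1.33e-04 and 2.04e-04). Irf3, the factor that starts interferon production, differed by 0.01 with an interval of -0.11 to 0.14 (adjusted p of 0.896). Of 22 ligand and type III receptor genes listed, 2 were measured, both receptor chains: Il10rb differed by 0.18 and Ifnlr1 by -0.12 (adjusted p of 0.0585 and 0.837). The listed ligand genes of interferon alpha and beta were not among the 14911 genes measured. Of 3 listed genes of interferon gamma and its receptor, the 2 receptor chains were measured. Of the interferon gamma receptor, Ifngr2 fell by 0.19 ± 0.05 (adjusted p of 0.00875) and Ifngr1 differed by -0.0037 (adjusted p of 0.964).

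Markers of several immune cell types were also lower in dexamethasone muscle. T cell markers fell in 7 of 7 cases, B cell markers in 7 of 7 and NK cell markers in 6 of 6, against 22.9% of all genes. The summed CPM of T cell markers was 23.9 to 35.9 in saline and 4.48 to 9.43 in dexamethasone libraries, that of B cell markers 36.5 to 53.5 and 5.84 to 17.3, and that of NK cell markers 9.70 to 14.6 and 1.14 to 5.23. Cd4 was the most abundant T cell marker and fell by 2.39 ± 0.30 (adjusted p of 1.23e-05), and Cd22 the most abundant B cell marker and fell by 1.86 ± 0.19 (adjusted p of 2.15e-06). Conventional dendritic cell markers fell in 6 of 8 cases, with sums of 26.7 to 33.9 in saline and 17.8 to 21.3 in dexamethasone libraries. Markers of plasmacytoid dendritic cells, the main makers of interferon alpha, fell in 5 of 8 cases and rose in 1, with sums of 602 to 695 and 477 to 593. That sum was mostly Cox6a2 and Tcf4, which muscle and other cells also express. Of the narrower markers, Siglech fell by 0.98 ± 0.19 (adjusted p of 6.17e-04), and it stood at 72 reads at most. Bst2, itself a marker of these cells in resting tissue, is one of the 40 genes.

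Macrophage and monocyte markers were mixed: 1 of 12 fell and 4 rose, with differences from -0.61 to 1.32 on the log2 scale. Their sums were 1191 to 1823 in saline and 1575 to 1781 in dexamethasone libraries. The 1823 was saline library 5 alone. Saline libraries 1, 2 and 3 were at 1191, 1358 and 1386, below every dexamethasone library. C1qa and C1qc, complement genes of tissue macrophages and the most abundant of that list, differed by 0.0050 and -0.0075 (adjusted p of 0.970 and 0.953). Neutrophil markers fell in 2 of 7 cases and rose in 1, their sums being 30.4 to 243 and 31.1 to 53.2. The 243 was saline library 3 alone, and saline libraries 1, 2 and 5 were at 30.4, 30.9 and 41.2. Of endothelial markers 0 of 7 were called, with 22.9% of all genes called lower and 25.2% higher. Markers of fibro-adipogenic progenitors fell in 2 of 7 cases, of satellite cells and myoblasts in 1 of 6 with 1 higher, and of keratinocytes in 0 of 3 measured. Those of lymph node stroma and vessels fell in 2 of 3 measured with 1 higher, with differences from -2.74 to 1.04. Their sums were 24.2 to 37.0 in saline and 5.75 to 20.7 in dexamethasone libraries, with no overlap. Mature muscle fibre markers fell in 4 of 10 cases, with sums of 106931 to 158521 in saline and 65693 to 99764 in dexamethasone libraries, so their summed level did not overlap between groups. No marker had 3 reads or fewer in every library, and Cxcr2, Mmp8, Cd3d, Cd8a, Ncr1 and Prf1 had 3 or fewer in at least 1 library. In whole muscle, fewer cells of a type and less RNA per cell cannot be told apart, and the part of these cell types in the fall of the interferon-stimulated genes was not tested.

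Dexamethasone library 9 had the largest summed CPM of its group for the 40 genes and for 0 of the 13 marker lists. In its summed CPM among the 9 dexamethasone libraries it ranked 6 from the top for T cells, 5 for B cells, 7 for NK cells, 5 for conventional dendritic cells, 4 for plasmacytoid dendritic cells and 6 for macrophages and monocytes, and was the lowest, rank 9, for lymph node stroma. By mean log2 CPM, in which low genes weigh as much as Cox6a2 and Tcf4, it was the highest dexamethasone library for the plasmacytoid dendritic cell markers, at 3.25 beside a dexamethasone median of 3.15 and saline libraries at 3.44 to 3.67. What part those cells had in the position of library 9 was not tested. For the 40 genes it ranked 1, and it ranked 1 in each role except the receptor subunits, where it ranked 5.

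**Figure D4:**
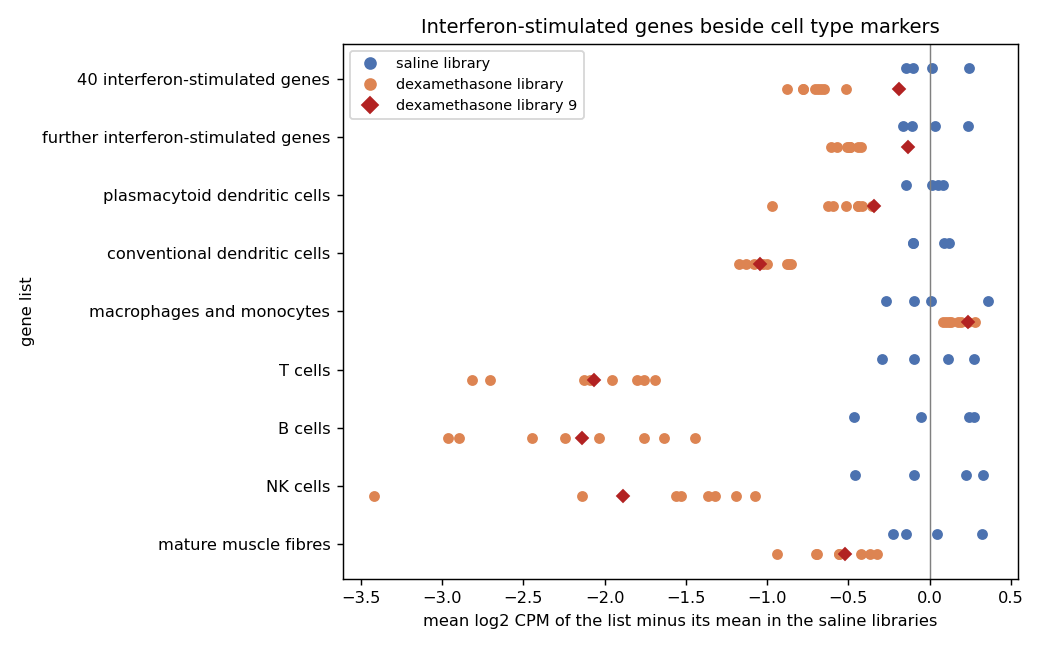
Mean log2 CPM of each of 9 gene lists minus its saline mean (x axis, log2 units) in each library, with 1 list per row, saline libraries in blue, dexamethasone libraries in orange and dexamethasone library 9 as a red diamond. Library 9 sits above the other dexamethasone libraries for the 40 genes and for the further interferon-stimulated genes, sits at their upper end for plasmacytoid dendritic cell markers, and sits among them for T, B and NK cell markers.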

How the data were processed

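Each of 13 mice, 4 given saline and 9 given dexamethasone by the labels, gave 1 library of polyadenylated RNA, prepared with a kit that keeps strand, per the labels' protocols. Counting used featureCounts 2.0.1 on mm10 and later steps limma 3.50.1, per the submitters' processing notes. The aligner, any filter and the strand setting: not given in the sources used here. What the authors deposited were log2 CPM values per mouse, with a log2 fold change, p-value and adjusted p-value per gene from their own comparison. The table scaled without the excluded saline mouse (14911 genes) was analysed, and 1 column of that mouse was left out. Reads recomputed from these values, as log2 of reads plus 0.5 over an effective size, came out within 0.01 of a whole number in 100% of cases, which gives depths of 25531487 to 34942266 reads. No library was taken for a copy of another, since 42 within-group pairs had a chi-square per gene of 7.32 or more.

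The groups were compared in limma 3.58.1 (R 4.3.3) with a moderated test, an intensity trend and all 13 libraries, two-sided, with Benjamini-Hochberg adjustment over all genes at 0.05. The p-values measure the spread between these mice. The script was tested on simulated data. All 40 genes are named, with up to 6 called genes of the second interferon list and up to 4 of each other pathway list, by smallest adjusted p and a mean log2 CPM of at least 0, a fixed few (Jak1, Tyk2, Socs1, Irf3), and up to 2 of the most abundant markers per list. Ifngr1, Il10rb, Ifnlr1, Slfn9, Ifitm2, Oas1g, Ifit1bl1, Ifi27 and Siglech were named with their values known, and 1 gene that this rule names is not reported here. The genes and lists were chosen with earlier results of these data known. Promoters came from RefSeq, exon lengths and shared letters from GENCODE M21, and coordinates from a RefSeq table of the same build, matched for 40 of 40 genes. Each comparison was repeated on the table scaled with the excluded mouse, with 1 added to CPM, above a mean log2 CPM of 1, with quantile normalisation or centring on medians, no trend, a robust prior, weights per library, voom on the reads, rank sum tests, mouse numbers blocked, and libraries left out. Figures were drawn with matplotlib 3.10.9.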

Additional observations from a re-analysis of the deposited data

Results flagged for a closer look

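In groups of 4 to 10 libraries, a library was looked at again when its gap to the nearest other library was too large for the range of its group by Dixon's criterion. Of 80 groups of values (40 genes in 2 groups of mice), 5 were picked out, where chance picks about 1 in 20, and genes that move together are not independent. Of these 5, 4 came from dexamethasone library 9. Zbp1 was at 4.56 log2 CPM in that library, and the next highest dexamethasone library was at 3.95. Oasl2 was at 5.79 with the next at 5.20, Parp9 at 5.03 with the next at 4.76, and Ifi44 at 2.07 with the next at 1.04. The remaining one was Trim30a in saline library 5, at 5.01 with the next saline library at 4.70. The values are given without an explanation, and no cause of the position of either library was tested.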

How the results depend on the processing

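The count of genes called lower was 30 to 33 with single libraries left out, lowest without saline library 5 and highest without dexamethasone library 9. It was 31 to 34 under the other alternatives, against 32 in the report. The count called higher was 1 throughout. The median log2 fold change of the 40 genes ran from -0.65 to -0.46 with single libraries left out and from -0.63 to -0.51 otherwise. Over all genes, 2949 to 3409 were lower and 3357 to 3767 higher with single libraries left out. With the mouse number as a replicate block on the 8 libraries whose number occurs in both groups, 32 of the 40 genes were lower and 1 higher, as in the same 8 libraries without the block, and 2905 and 3054 of all genes were lower and higher against 2970 and 3154 without it. Same-numbered libraries deviated together with correlations of -0.01, -0.07, -0.03 and 0.12, so the numbers were not taken as pairs.

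Of the 33 genes called, 31 kept their call and direction under all 26 alternatives. Oas1a lost it without saline library 5 (adjusted p of 0.0761) and in the exact rank sum test (0.0713). Trim25 lost it without saline library 2 (0.0509), without saline library 5 (0.0606) and without saline library 3 and dexamethasone library 4 together (0.0522). Of the 7 not called, Isg20 was called lower under quantile normalisation (0.039) and without saline library 2 (0.0464). Trim30a was called lower under median centring (0.0454), quantile normalisation (0.0359), the exact rank sum test (0.0463) and without dexamethasone library 9 (0.0198). The other 5 were called under no alternative. Socs1 was called higher without saline library 5, with a difference of 0.41 and an adjusted p of 0.0335. The causes of these changes were not tested. Depth limits the least abundant genes most, Ifi44 and Mx2 having as few as 39 and 47 reads in a library.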
